A study of Homo sapiens with 18 samples.

Results

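The genes described here are 10 histone and DNA demethylases and their close relatives, KDM3A, KDM4A, KDM4B, KDM4C, KDM2B, KDM5B, KDM6B, JMJD6, TET1 and TET2, taken by symbol from the 23106 genes counted in each RNA sample. Polyadenylated RNA was sequenced from 3 human cell lines under normoxia or hypoxia, each in triplicate (3 samples per group, 18 altogether), to follow hypoxic gene regulation. HKC-8 is a line derived from renal proximal tubule, HepG2 is a line from a hepatocellular carcinoma, and the RCC4 cells come from a renal carcinoma that lost the tumour suppressor VHL and carry a stably transfected wild-type VHL, which all 6 RCC4 samples share. Whether the transfected cells are 1 clone or a pool is not given in the sources used here. HKC-8 and HepG2 cells were held at 0.5% oxygen for 16 h, although 0.1 stands in the sample titles of the HKC-8 hypoxia group. The labels give the RCC4 cells 1% oxygen for 24 h, whereas the study describes all hypoxic RNA samples as 0.5% for 16 h, and a normoxic oxygen level, 21, stands only in the HKC-8 titles. The hypoxic responses of RCC4 cells are therefore set beside those of the other lines without a test of the difference. Nothing in the labels says that replicates came from separate cultures, so p-values measure the spread between these samples, which may be technical.

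JmjC-domain enzymes and the TET proteins are dioxygenases that need iron, 2-oxoglutarate and molecular oxygen. JmjC enzymes hydroxylate the methyl groups on histone lysines, which are then lost as formaldehyde, and TET enzymes oxidise 5-methylcytosine in DNA, the first step of its active removal. RNA counts measure the transcripts of these enzymes and not their activity. Several genes of this class are known targets of the hypoxia-inducible factors (HIF), transcription factors whose alpha subunits VHL marks for destruction when oxygen is plentiful.

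In all 3 lines most of these genes were higher in hypoxia, and KDM3A, KDM4B and KDM2B rose in each line. An edgeR quasi-likelihood test over all genes called a gene at a Benjamini-Hochberg adjusted p under 0.05. Fitted without regard to replicate number, it called 5 of the 10 members as induced and 0 as repressed in HKC-8 cells. There 11.2% of the 13536 genes tested were induced and 9.12% repressed. In RCC4 cells 7 members were induced and 0 repressed, against 25.9% and 24.2% of 12811 genes. In HepG2 cells 8 were induced and 1 was repressed, against 19.9% and 19.2% of 13623 genes. All 10 members passed the filter on low counts in every comparison. The members' median log2 fold change was 0.60 in HepG2, 0.46 in RCC4 and 0.38 in HKC-8 cells, whereas the median over all genes tested was -0.0044, -0.0018 and 0.0036. The members were chosen with earlier results of these data known. Their counts and medians beside those of all genes are therefore a description and not a test of the class. Every hypoxic sample lay above every normoxic one for 8 members in HKC-8 cells, where 19.3% of all genes tested did so and 20.1% lay wholly below. The same held for 8 members in RCC4 cells (27.6% of genes above, 28.8% below) and for 9 in HepG2 cells (23.8% above, 26.1% below), where KDM4A lay wholly below. These counts used levels scaled by TMM, edgeR's correction for library composition. With counts relative to the plain library total, an alternative chosen after seeing the data, 8 members lay wholly above in HepG2 cells (KDM6B overlapped), 7 in RCC4 cells (TET1 overlapped) and 7 in HKC-8 cells (KDM4C overlapped), and KDM4A lay wholly below in RCC4 cells. Of all genes, 2590 then lay above and 5047 below in RCC4 cells, against 3530 and 3685 with TMM, and 2432 and 4929 in HepG2 cells, against 3243 and 3562. In bulk RNA a change in the number of transcripts per cell and a change in the share of cells that hold them cannot be told apart.

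The HKC-8 count depended on the fit and on single samples. Same-numbered normoxic and hypoxic HKC-8 samples deviated together, with correlations of 0.20, 0.67 and 0.61 for replicates 1, 2 and 3. Normoxic replicate 1 also had a correlation of 0.16 with hypoxic replicate 2, so its pairing is less clear. The calls above used no block. With the replicate number as a block 9 of the 10 members were called as induced in HKC-8 cells. Over all genes 2836 were then induced, against 1522 without the block. In fits with no block the count was 3 without normoxic replicate 1 and 8 without hypoxic replicate 2, which added KDM4C, KDM5B and TET1. Over all genes these 2 fits called 687 and 1574 as induced, so the member counts moved along with those of all genes.

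The libraries held 40915980 to 97984260 counts on genes, with the HKC-8 libraries deeper than those of the other lines. The hypoxia markers NDRG1 and VEGFA rose in all 3 lines, by a log2 fold change of 4.72 and 1.72 in HKC-8, 3.74 and 0.87 in RCC4 and 3.56 and 1.38 in HepG2 cells. CA9 rose by 4.92 in HKC-8 and 8.45 in HepG2 cells, and EGLN3 by 2.38 and 5.30. In RCC4 cells both were too low to test, with 0 normoxic and 3 to 6 hypoxic counts of CA9. HepG2 cells held the hepatocyte transcript ALB at 9466 to 11214 CPM (counts relative to the scaled library total), against at most 0.031 in the other lines. The renal epithelial factor PAX8 lay between 103.6 and 180.9 CPM in HKC-8 and RCC4 cells, whereas LRP2, a defining receptor of proximal tubule, was at most 0.012 in HKC-8 and 0.76 in RCC4 cells. The leukocyte marker PTPRC was at most 0.051 CPM in every sample. Among markers of other cell types, CD68 (log2 0.39) and COL1A1 (0.55) rose with hypoxia in HepG2 cells, where PTPRC was at 0 and the endothelial marker PECAM1 at 1.05 to 2.14 CPM, and neither was called in the other lines. Their part in the HepG2 results was not tested.

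Promoter sequence is shown for KDM3A and the 3 KDM4 genes, of which KDM3A and KDM4B rose in every line while KDM4A moved in no common direction. KDM2B also rose in every line but its windows are not shown. The windows reach from 250 bases before to 50 after a RefSeq transcription start. They were taken from the GRCh38.p14 table and placed on GRCh37 by their only exact match. Capitals mark ACGTG and GCGTG on either strand, the core letters of the hypoxia response element that HIF recognises. The palindrome CACGTG holds ACGTG on both strands, so it counts as 2 overlapping matches.
KDM3A promoter, chr2:86668244-86668543, + strand: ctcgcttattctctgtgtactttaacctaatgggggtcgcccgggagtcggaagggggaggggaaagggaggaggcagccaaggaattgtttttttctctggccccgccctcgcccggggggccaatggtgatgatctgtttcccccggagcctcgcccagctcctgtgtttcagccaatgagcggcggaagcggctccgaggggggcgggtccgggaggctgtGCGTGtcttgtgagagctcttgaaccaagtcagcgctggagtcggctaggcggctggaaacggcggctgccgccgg
KDM4A promoter, chr1:44115570-44115869, + strand: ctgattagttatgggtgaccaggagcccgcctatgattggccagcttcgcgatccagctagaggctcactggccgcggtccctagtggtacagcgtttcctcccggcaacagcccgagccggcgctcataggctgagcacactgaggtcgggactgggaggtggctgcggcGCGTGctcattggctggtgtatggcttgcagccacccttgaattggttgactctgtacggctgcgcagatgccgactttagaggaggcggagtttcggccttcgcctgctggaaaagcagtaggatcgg
KDM4B promoter, chr19:4968874-4969173, + strand: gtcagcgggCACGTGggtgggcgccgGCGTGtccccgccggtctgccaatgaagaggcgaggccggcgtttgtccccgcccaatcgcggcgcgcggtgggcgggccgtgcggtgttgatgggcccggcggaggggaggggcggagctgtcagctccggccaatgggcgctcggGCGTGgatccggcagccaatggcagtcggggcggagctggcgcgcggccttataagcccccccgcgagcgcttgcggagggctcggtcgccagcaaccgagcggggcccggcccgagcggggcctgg
KDM4C promoter, chr9:6757723-6758022, + strand: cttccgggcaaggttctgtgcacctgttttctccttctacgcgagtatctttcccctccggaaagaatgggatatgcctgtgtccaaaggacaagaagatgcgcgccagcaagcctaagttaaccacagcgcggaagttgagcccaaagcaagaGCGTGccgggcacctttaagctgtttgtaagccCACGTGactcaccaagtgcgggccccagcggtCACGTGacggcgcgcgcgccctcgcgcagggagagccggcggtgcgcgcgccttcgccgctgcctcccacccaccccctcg

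The KDM3A window held 1 match, with GCGTG starting 26 bases before the start site, and the KDM4A window held 1 match 79 bases before it. KDM4B had 4 matches, made up of a CACGTG and 2 further GCGTG, and KDM4C had 5, from 2 CACGTG and 1 GCGTG. Among windows not shown, the 4 of KDM2B held 1, 1, 1 and 3 matches. The 3 of TET1, which rose in HepG2 cells, held 0, 1 and 0. Of 17 RefSeq windows for 9 of the 10 members, 14 held at least 1 match, or 82.4%, against 48.4% of all 35116 windows of the same length. ACGTG was in 5 of the 17 and GCGTG in 11, against 21.4% and 36.5% of all windows. Windows of 1 gene can overlap, as the 2 of KDM3A do, so they are not independent. The GC content of the member windows ran from 47.7% to 84.0%, and the shares were not matched for it. Letters in a window are a description and not evidence of binding. The member not matched was JMJD6.

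KDM3A removes mono- and dimethylation from histone H3 lysine 9 (H3K9), a repressive mark. The gene lies on the plus strand of chromosome 2 from 86667770 to 86719839 (GRCh37), with 26 exons. Its levels, in CPM scaled by TMM over all samples, were 66.1, 60.5 and 69.2 in normoxic and 229.9, 204.9 and 224 in hypoxic HKC-8 cells. RCC4 cells had 31.9, 32.1 and 31.7 in normoxia and 89.6, 87.4 and 83.5 in hypoxia. HepG2 cells had 64.0, 58.9 and 67.2 in normoxia and 218.9, 208.2 and 199.5 in hypoxia. Every hypoxic sample thus lay above every normoxic sample of its line. The fold change in HKC-8 cells was 3.39 (log2 1.76, SE 0.09, adjusted p = 6.07e-06 by edgeR), 2.74 in RCC4 cells (1.45, SE 0.05, adjusted p = 1.03e-17) and 3.32 in HepG2 cells (1.73, SE 0.07, adjusted p = 2.14e-10). It ranked 230 of 13536, 119 of 12811 and 233 of 13623 genes by log2 fold change in the 3 lines.

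KDM4A, KDM4B and KDM4C belong to 1 subfamily that removes trimethylation from H3K9 and from histone H3 lysine 36 (H3K36), and their calls differed between lines. KDM4B, on chromosome 19 from 4969124 to 5153609, was at 19.4, 16.3 and 15.03 CPM in normoxic and 46.9, 52.2 and 49.8 in hypoxic HKC-8 cells. The RCC4 values were 19.9, 22.9 and 22.4 in normoxia and 38.8, 34.8 and 34.7 in hypoxia, and HepG2 cells stood at 25.4, 23.1 and 25.6 and at 70.0, 66.3 and 73.2. Hypoxic samples lay above normoxic ones without overlap in each line. The rise was 2.96-fold in HKC-8 (log2 1.56, SE 0.11, adjusted p = 4.49e-05 by edgeR) and 2.84-fold in HepG2 cells (1.51, SE 0.07, adjusted p = 1.68e-09). In RCC4 cells it was 1.67-fold (0.74, SE 0.07, adjusted p = 2.00e-09).

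KDM4C, on chromosome 9, rose in RCC4 and HepG2 cells. Its CPM were 8.86, 9.69 and 11.2 in normoxic against 15.1, 16.3 and 15.2 in hypoxic RCC4 cells, and 31.9, 29.7 and 33.7 against 47.3, 45.7 and 48.4 in HepG2 cells. The log2 fold changes were 0.66 (SE 0.09, adjusted p = 1.40e-06 by edgeR) and 0.58 (SE 0.07, adjusted p = 2.08e-05). In HKC-8 cells the levels of 16.3, 15.6 and 17.7 in normoxia and 21.5, 18.5 and 23.1 in hypoxia also did not overlap with TMM scaling. The log2 difference of 0.36 (SE 0.12) had an adjusted p = 0.0553, which became 0.00490 with the replicate block, 0.0466 without normoxic replicate 3 and 0.0237 without hypoxic replicate 2.

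KDM4A, on chromosome 1 from 44115820 to 44171189, was the only member called in opposite directions in different lines. HKC-8 cells had 106.6, 118.7 and 116.2 CPM in normoxia and 144.6, 139 and 137.5 in hypoxia. RCC4 cells had 84.8, 86.5 and 85.2 in normoxia and 83.6, 85.3 and 87.7 in hypoxia, which overlapped. HepG2 cells had 49.8, 44.003 and 50.2 in normoxia and 39.9, 41.5 and 42.1 in hypoxia. KDM4A rose in HKC-8 cells (log2 0.31, SE 0.07, adjusted p = 0.0199 by edgeR) and fell in HepG2 cells (-0.21, SE 0.07, adjusted p = 0.0245), while the RCC4 difference was 0.01 (SE 0.04, adjusted p = 0.850). Both calls were lost without particular samples. Without normoxic replicate 1 or hypoxic replicate 1 the HKC-8 adjusted p was 0.104 and 0.0888, and it lay between 0.0524 and 0.106 in HepG2 cells without normoxic replicate 1 or without any of the 3 hypoxic replicates. Exons of KDM4A overlap the antisense gene KDM4A-AS1 by 473 bases, and without a stated strand setting reads there cannot be assigned to a strand. They also share 2086 bases with an annotated gene without a symbol on the same strand, which no strand setting would separate. Neither gene is among those counted, so reads from them can fall within the KDM4A counts.

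Shares within the subfamily differed between the conditions. CPM were divided by the exon length of 1 reference transcript per gene (Ensembl canonical), so the size of a share depends on that choice. On this scale KDM4B made up 9.40% ± 1.56 (SD, n = 3) of the summed KDM4A, KDM4B and KDM4C level in normoxic HKC-8 cells and 19.7% ± 1.27 in hypoxic ones. Its share was 15.4% ± 0.78 and 22.1% ± 1.47 in RCC4 and 19.7% ± 0.21 and 38.3% ± 0.79 in HepG2 cells. The KDM4A share was 78.8% ± 1.87 in normoxic and 69.5% ± 1.21 in hypoxic HKC-8 cells, where its own level rose. It was 75.6% ± 1.47 against 65.5% ± 1.34 for RCC4, and 47.7% ± 0.51 against 28.2% ± 0.93 for HepG2. The KDM4B and KDM4A shares did not overlap between conditions in any line. In hypoxic HepG2 cells KDM4A was thus the smallest of the 3 per length, whereas it was the largest in normoxia. The KDM4C share was 11.8% ± 0.84 and 10.8% ± 1.15 in HKC-8, 9.06% ± 0.94 and 12.3% ± 0.54 in RCC4 and 32.7% ± 0.55 and 33.4% ± 0.31 in HepG2 cells.

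**Figure D1:**
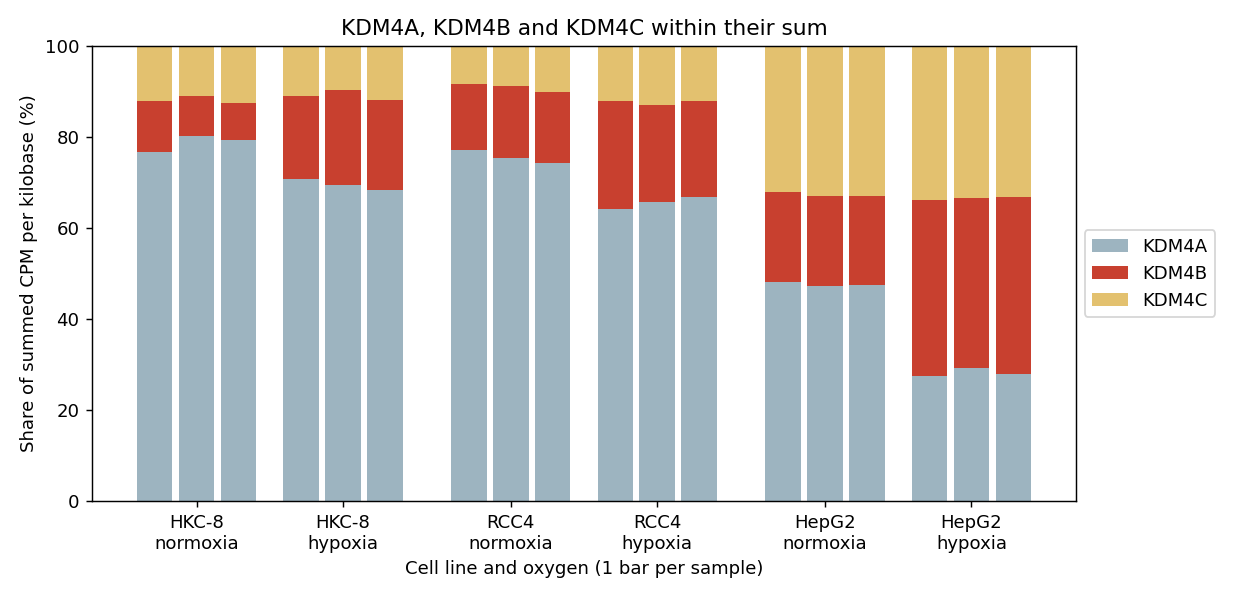
Share of the summed CPM per kilobase held by KDM4A, KDM4B and KDM4C (percent, y axis), with 1 stacked bar per sample, by cell line and oxygen. The KDM4B share is higher in hypoxia in every line, with a mean of 38.3% in hypoxic HepG2 cells, while the KDM4A share is lower in hypoxia throughout.

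KDM2B, an H3K36 demethylase that also brings a Polycomb complex to unmethylated CpG islands, rose in each line, by 0.38 to 0.51 on the log2 scale. Its CPM were 62.9, 64.6 and 63.5 in normoxic and 84.4, 86.3 and 76.9 in hypoxic HKC-8 cells, 19.9, 20.6 and 19.4 against 26.6, 26.6 and 25.1 in RCC4 cells, and 55.2, 51.0 and 55.1 against 77.3, 70.6 and 79.9 in HepG2 cells. The conditions did not overlap in any line. Log2 fold changes were 0.38 (SE 0.07, adjusted p = 0.00843 by edgeR), 0.40 (SE 0.06, adjusted p = 7.31e-06) and 0.51 (SE 0.07, adjusted p = 4.80e-05). Without HKC-8 normoxic replicate 1 the adjusted p there was 0.0511. KDM2B shares 439 exonic bases with RNF34 on the other strand, which is counted in the same files.

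KDM5B removes trimethylation from histone H3 lysine 4 (H3K4), a mark of active promoters. HepG2 cells held 67.6, 61.2 and 72.6 CPM in normoxia and 147.3, 137.1 and 140.6 in hypoxia, and RCC4 cells 64.1, 62.7 and 65.4 against 76.3, 77.6 and 80.1. The HKC-8 values of 70.1, 66.6 and 83.4 in normoxia overlapped with 89.9, 81.5 and 112.7 in hypoxia. KDM5B rose 2.13-fold in HepG2 cells (log2 1.09, SE 0.07, adjusted p = 3.72e-08 by edgeR) and 1.23-fold in RCC4 cells (0.29, SE 0.04, adjusted p = 4.36e-06). In HKC-8 cells the log2 difference was 0.38 (SE 0.13, adjusted p = 0.0714). With the replicate block it was 0.37 with an adjusted p = 0.000657, and replicate 3 was the highest sample of both conditions. The adjusted p was 0.0319 without normoxic replicate 3 and 0.0275 without hypoxic replicate 2.

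KDM6B removes methylation from histone H3 lysine 27 (H3K27), the Polycomb mark, and it was called only in HKC-8 cells. There it went from 21.1, 22.4 and 17.7 CPM in normoxia to 33.1, 31.1 and 31.6 in hypoxia, a log2 fold change of 0.66 (SE 0.11, adjusted p = 0.00432 by edgeR). In HepG2 cells 31.2, 31.2 and 28.9 in normoxia stood against 35.4, 33.9 and 31.9 in hypoxia. These did not overlap with TMM scaling, though they did relative to the plain library total, and the log2 difference of 0.16 (SE 0.07) had an adjusted p = 0.107. RCC4 cells held less, 8.96, 8.69 and 8.62 in normoxia and 10.03, 7.12 and 8.02 in hypoxia, and the conditions overlapped, with a log2 difference of -0.05 (SE 0.11, adjusted p = 0.729).

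JMJD6 is a JmjC oxygenase that hydroxylates lysines of splicing factors and has been described as an arginine demethylase. HKC-8 cells held 38.3, 39.5 and 32.9 CPM in normoxia and 34.9, 39.9 and 33.0 in hypoxia. RCC4 cells held 21.2, 19.6 and 20.0 against 24.5, 25.0 and 23.7, and HepG2 cells 45.4, 44.6 and 50.4 against 69.2, 65.5 and 76.0. The HKC-8 conditions overlapped, and the log2 difference was -0.03 (SE 0.11, adjusted p = 0.871 by edgeR). JMJD6 rose in RCC4 (0.28, SE 0.06, adjusted p = 0.000567) and HepG2 cells (0.60, SE 0.07, adjusted p = 2.69e-05).

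TET1 and TET2 both convert 5-methylcytosine to its oxidised forms, and TET1 binds CpG-rich DNA directly. In HepG2 cells TET1 went from 18.2, 14.8 and 22.6 CPM in normoxia to 56.7, 57.4 and 55.6 in hypoxia, a 3.08-fold rise (log2 1.62, SE 0.11, adjusted p = 1.10e-07 by edgeR). In HKC-8 cells it was at 21.8, 19.3 and 21.7 and at 26.3, 23.7 and 31.5, which did not overlap. The log2 difference was 0.39 (SE 0.12, adjusted p = 0.0536), and with the replicate block 0.38 with an adjusted p = 0.00343. Without hypoxic replicate 2 the adjusted p was 0.0219. RCC4 cells had almost no TET1, with 18 to 26 counts per normoxic and 30 to 48 per hypoxic library, or 0.36 to 0.61 and 0.62 to 0.97 CPM. There the log2 difference was 0.74 (SE 0.34, adjusted p = 0.0800), and its 95% interval ran from 0.02 to 1.45.

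TET2 rose in RCC4 and HepG2 cells. It stood at 10.02, 8.81 and 8.83 CPM in normoxic and 13.7, 12.4 and 13.3 in hypoxic RCC4 cells, and at 12.01, 11.5 and 13.8 against 19.3, 19.3 and 17.8 in HepG2 cells. Log2 fold changes were 0.52 (SE 0.09, adjusted p = 2.20e-05 by edgeR) and 0.61 (SE 0.09, adjusted p = 0.000179). HKC-8 cells held 19.2, 17.3 and 18.5 in normoxia and 21.8, 21.4 and 24.0 in hypoxia, also without overlap, with a log2 difference of 0.30 (SE 0.10, adjusted p = 0.0598, or 0.0102 with the replicate block). Per exon length, TET1 made up 59.5% ± 3.00 of the TET1 and TET2 sum in normoxic and 75.0% ± 0.65 in hypoxic HepG2 cells (SD, n = 3). In HKC-8 cells it made up 53.2% ± 0.59 and 54.6% ± 2.11, which overlapped, and in RCC4 cells 5.09% ± 1.503 and 5.79% ± 1.39.

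**Figure D2:**
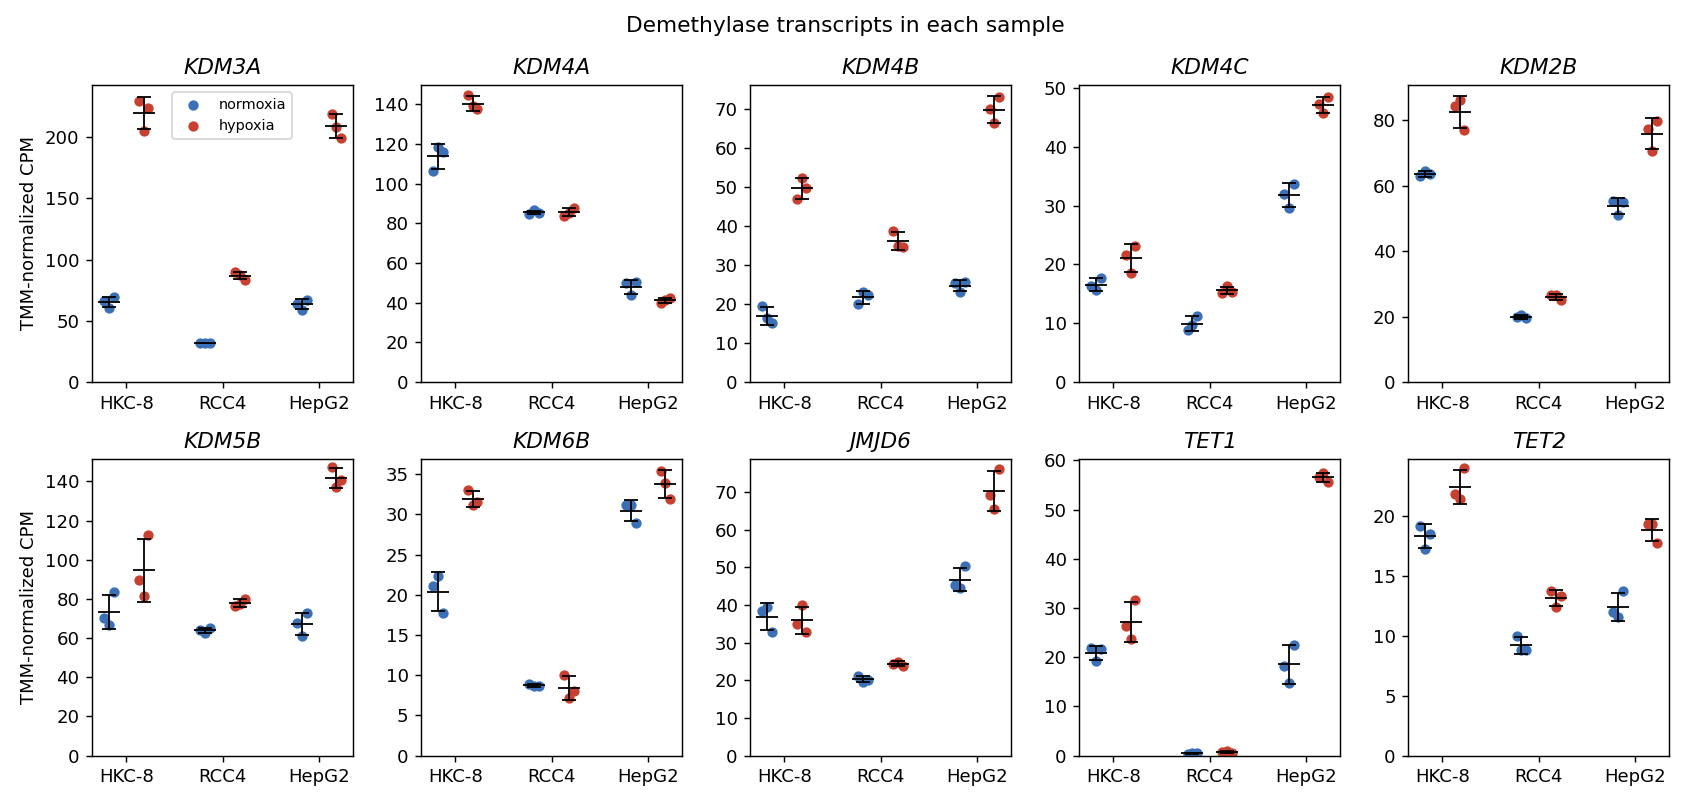
Level of each of the 10 genes in every sample (TMM-scaled CPM, y axis from 0), normoxic and hypoxic, in HKC-8, RCC4 and HepG2 cells, with the mean and SD as a black bar. Hypoxic samples of KDM3A and KDM4B lie above normoxic ones in every line, and TET1 lies below 1 CPM in RCC4 cells.

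**Figure D3:**
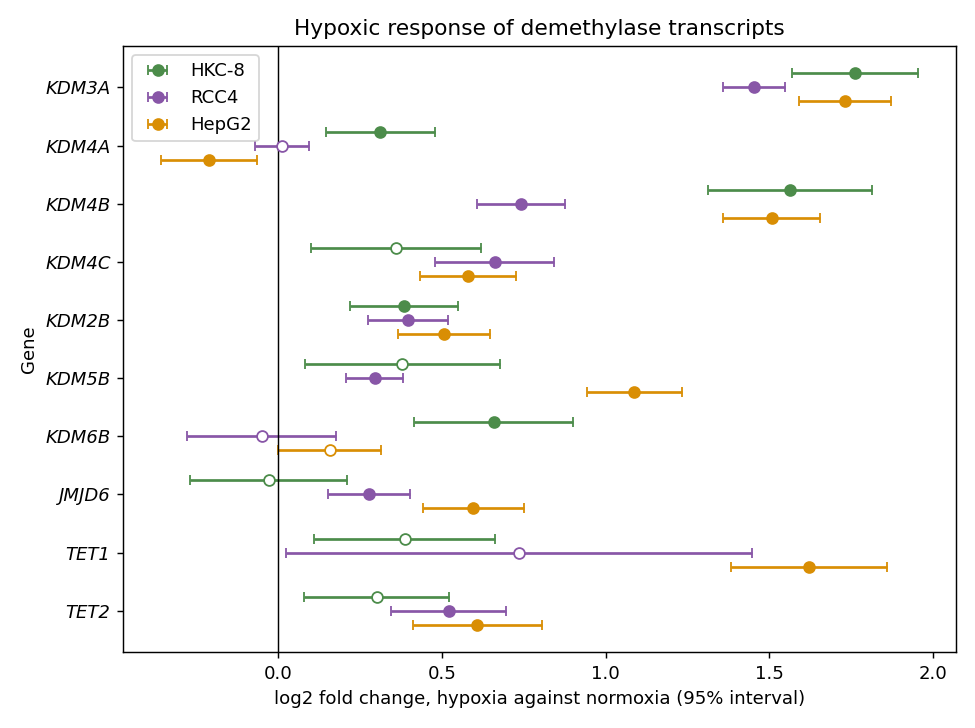
Log2 fold change of hypoxia over normoxia for each of the 10 genes in the 3 lines, with 95% intervals as bars and open circles where the adjusted p was not under 0.05. The fits had no block, and with the replicate block 9 of the 10 genes were called in HKC-8 cells. KDM3A lies between 1.45 and 1.76 in the 3 lines, and KDM4A lies on both sides of 0.

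The sample characteristics give HKC-8 and HepG2 cells the same hypoxic oxygen level and duration, so their responses were compared by an interaction term in 1 fit of 12 samples. This fit, which had no block, called 5 of the 10 members, against 9.30% of 15046 genes. With the replicate block 5 members were called as well, and 3019 genes in all, against 1399 without it. TET1 responded less in HKC-8 than in HepG2 cells (difference of log2 fold changes -1.24, 95% interval -1.64 to -0.84, adjusted p = 0.000655 by edgeR). The same held for KDM5B (-0.71, adjusted p = 0.0109), and JMJD6, which rose in HepG2 and was not called in HKC-8 cells, also differed (-0.63, adjusted p = 0.00767). KDM4A responded higher in HKC-8 than in HepG2 cells by 0.52 (adjusted p = 0.00404). KDM6B did so by 0.50 (adjusted p = 0.0273), a call lost without HKC-8 hypoxic replicate 1, HepG2 normoxic replicate 1 or 2, or HepG2 hypoxic replicate 2 or 3, at adjusted p between 0.0542 and 0.0704. For KDM3A the difference was 0.03 with a 95% interval of -0.21 to 0.26, and for KDM4B 0.05 with -0.23 to 0.34. Differences for KDM2B of -0.13 (-0.34 to 0.09), KDM4C of -0.22 (-0.51 to 0.06) and TET2 of -0.31 (-0.60 to -0.02) did not pass the adjusted threshold. If the 0.1 in the HKC-8 titles is the true oxygen level, the hypoxia also differed between the lines. That, library depth and any batch cannot be told apart from the line.

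Levels in normoxia differed between the lines for most members, as for most genes. RCC4 differed from HKC-8 cells in 9 of 10 members, 8 of them lower, where 80.8% of 14806 genes differed. HepG2 differed from HKC-8 cells in 7 members (83.0% of genes) and from RCC4 cells in 8 (83.3%). TET1 showed the widest gap, with a log2 difference of -5.42 (SE 0.21, adjusted p = 1.75e-11 by edgeR) between RCC4 and HKC-8 cells, whereas HepG2 and HKC-8 cells differed by -0.14 (SE 0.14, adjusted p = 0.364). KDM2B stood at a log2 difference of -1.67 between RCC4 and HKC-8 cells and KDM6B at -1.21. KDM4C was highest in HepG2 cells, by 0.98 over HKC-8 and 1.71 over RCC4 cells, and KDM4A was lowest there, at -1.21 and -0.81. KDM3A was not called between HepG2 and HKC-8 cells (-0.01, SE 0.07, adjusted p = 0.920) and lower in RCC4 than in HKC-8 cells, at -1.02. KDM5B was called in none of the 3 contrasts, with log2 differences of -0.19, -0.10 and 0.09. Without HKC-8 normoxic replicate 2, KDM5B was called lower in RCC4 (-0.27, adjusted p = 0.0154) and HepG2 cells (-0.22, adjusted p = 0.0346) than in HKC-8 cells, and without HepG2 normoxic replicate 3 TET1 was called lower in HepG2 than in HKC-8 cells (-0.36, adjusted p = 0.0365). The cell line cannot be told apart from library depth or batch in these contrasts.

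Per kilobase of exon, levels of different genes can be set side by side, within limits. The length was that of 1 reference transcript per gene (Ensembl canonical), whereas reads were counted over each UCSC-defined gene. The order of genes therefore depends on that choice of transcript. In normoxic HKC-8 cells KDM4A had the highest mean, 25.4 ± 1.42 CPM per kb (SD, n = 3), followed by JMJD6 at 22.8 ± 2.18, with overlapping ranges, and KDM3A at 13.98 ± 0.94. KDM2B at 11.98 ± 0.16, KDM5B at 7.90 ± 0.95 and KDM4C at 3.81 ± 0.25 came next, each without overlap with its neighbour. KDM6B at 3.03 ± 0.36 and KDM4B at 3.02 ± 0.40 overlapped, and TET1 at 2.18 ± 0.15 and TET2 at 1.91 ± 0.10 were lowest. In hypoxia KDM3A came first, at 47.1 ± 2.79, without overlap with KDM4A at 31.3 ± 0.83, and KDM4B stood at 8.86 ± 0.47, overlapping with KDM5B at 10.2 ± 1.74.

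In HepG2 cells JMJD6 led in normoxia, at 28.9 ± 1.95, ahead of KDM3A at 13.6 ± 0.89, whereas in hypoxia KDM3A at 44.8 ± 2.08 and JMJD6 at 43.3 ± 3.28 overlapped at the top. TET1 in HepG2 cells went from 1.93 ± 0.40 to 5.89 ± 0.10 and passed KDM6B, at 5.01 ± 0.26 in hypoxia. In RCC4 cells KDM4A led in normoxia at 19.1 ± 0.21, with KDM3A at 6.84 ± 0.04, and in hypoxia KDM3A at 18.6 ± 0.66 overlapped with KDM4A at 19.1 ± 0.45. TET1 was the lowest member in RCC4 cells, at 0.051 ± 0.013 in normoxia and 0.084 ± 0.018 in hypoxia.

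**Figure D4:**
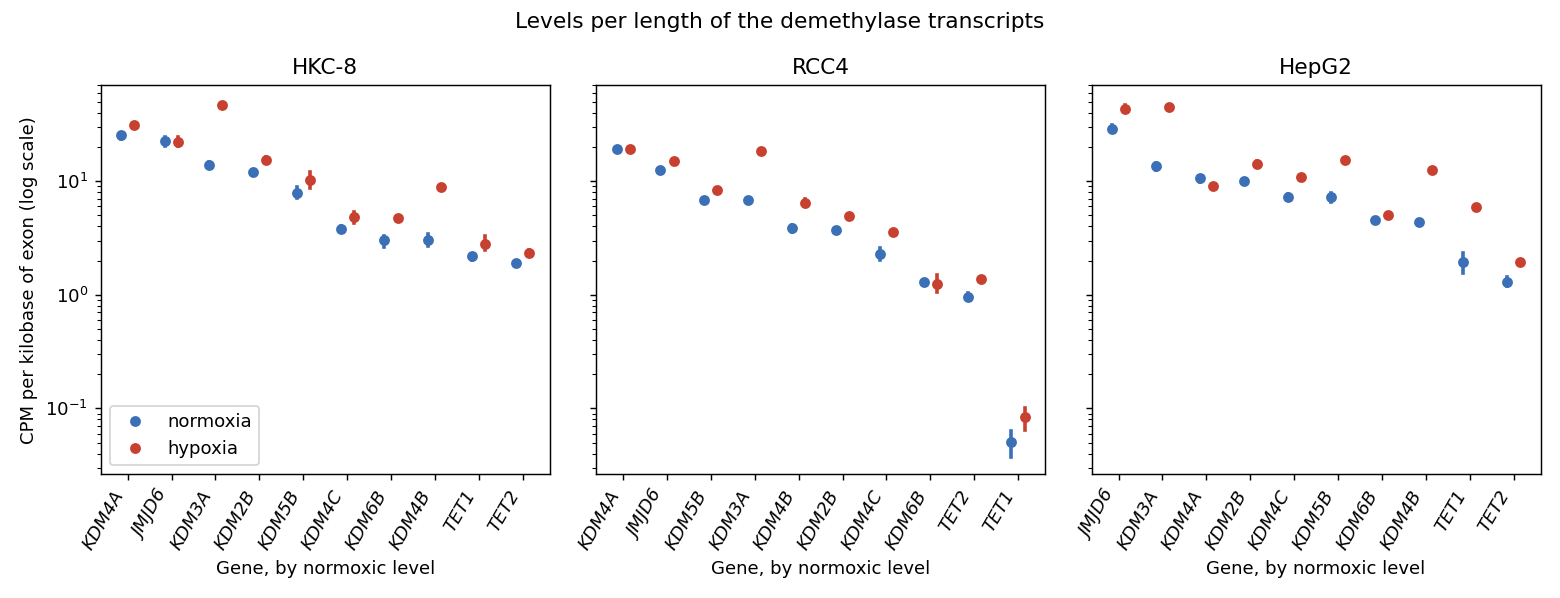
Level per kilobase of exon (TMM-scaled CPM per kb, log axis) of the 10 genes in each line and condition, as the mean (point) and the range of 3 samples (bar). In normoxia KDM4A leads in RCC4 cells and overlaps with JMJD6 at the top in HKC-8 cells. In hypoxia KDM3A leads in HKC-8 cells, and overlaps at the top with JMJD6 in HepG2 and with KDM4A in RCC4 cells.

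Genes whose pattern over the 18 samples was most like that of a member were sought among 11418 genes. The measure was Pearson's r of log2(CPM + 1), centred on each line's normoxic mean, which shrinks the changes of genes at low CPM. The points share lines and libraries, so r describes these samples only. KDM3A was closest to FUT11, a fucosyltransferase (r = 0.997), to C4orf3 (0.996) and to P4HA1, a subunit of the collagen prolyl hydroxylase (0.994). KDM4B was closest to TNIP1 (0.988), P4HA2, another prolyl hydroxylase subunit (0.984), and the mitochondrial protease LONP1 (0.981). KDM2B was closest to the glycolytic enzyme ALDOA (0.973) and the lactate exporter SLC16A3 (0.973), and TET2 to ZNF292 (0.972) and the oxidoreductase gene ERO1L (0.963). KDM5B was closest to SOS1 (0.981), KDM4C to RRAGD (0.977) and JMJD6 to TUBB6 (0.980). KDM4A, with its opposite directions, was closest to the copper transporter SLC31A1 (0.956).

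Among 20 other JmjC-domain genes tested, 2 rose and 1 fell in HKC-8, 5 rose and 5 fell in RCC4 and 8 rose and 4 fell in HepG2 cells, with medians of 0.07, 0.03 and 0.01 on the log2 scale. Those that rose were thus 10%, 25% and 40% of the list, against 11.2%, 25.9% and 19.9% of all genes tested. Those that fell were 5%, 25% and 20%, against 9.12%, 24.2% and 19.2%. JHDM1D, the earlier symbol of the H3K9 and H3K27 demethylase KDM7A, rose in every line, by 0.90, 0.68 and 1.01. HR, the hairless corepressor, rose in HKC-8 cells (log2 0.55), where normoxic samples held 7.92 to 9.27 CPM and hypoxic ones 12.5 to 12.7. It rose in HepG2 cells too (2.60), from a range of 0.76 to 1.41 CPM to one of 5.61 to 8.79. In RCC4 cells HR fell (-2.80, adjusted p = 0.000257 by edgeR), on 19 to 29 normoxic and 1 to 5 hypoxic counts. HepG2 cells also had higher KDM4D (0.55) and JARID2 (0.54) and lower HSPBAP1 (-0.91). KDM4E had no counts in any sample. With the replicate block 7 of the 20 were called in HKC-8 cells, where over all genes 2836 then rose and 2919 fell. Without normoxic or hypoxic replicate 1, 1 of the 20 was called there.

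Of 9 other nucleic acid and flavin-dependent demethylases, 1 rose and 3 fell in HKC-8, 2 rose and 2 fell in RCC4 and 1 rose and 2 fell in HepG2 cells. Their medians were -0.25, 0.05 and -0.16 on the log2 scale. The shares of all genes that rose or fell, given above for the JmjC-domain genes, hold for this list and the next. ALKBH5, which removes N6-methyladenosine from RNA, rose by 0.72 in both HKC-8 and HepG2 cells and by 0.23 in RCC4 cells. With the replicate block 7 of these 9 genes and 8 of the methyltransferases were called in HKC-8 cells, and of the 9 genes 1 was called without normoxic replicate 1 and 2 without normoxic replicate 2 or hypoxic replicate 1. Of the 24 methyltransferases, edgeR called 0 in HKC-8 cells, where 5 had an unadjusted p under 0.05 and DESeq2 called 3. Without normoxic replicate 2, normoxic replicate 3 or hypoxic replicate 2 edgeR called 2, 1 and 3. In RCC4 cells 8 rose and 4 fell, among them ASH1L (0.72), MLL (0.61) and MLL3 (0.56), H3 lysine methyltransferases that rose. In HepG2 cells 3 rose and 6 fell, with MLL5 at 0.52 and the DNA methyltransferase DNMT3B at -0.63. The median log2 fold changes of the methyltransferases were 0.03, 0.07 and -0.02, below the members' medians in each line. That difference between lists was not tested, and the lists were chosen with earlier results of these data known.

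**Figure D5:**
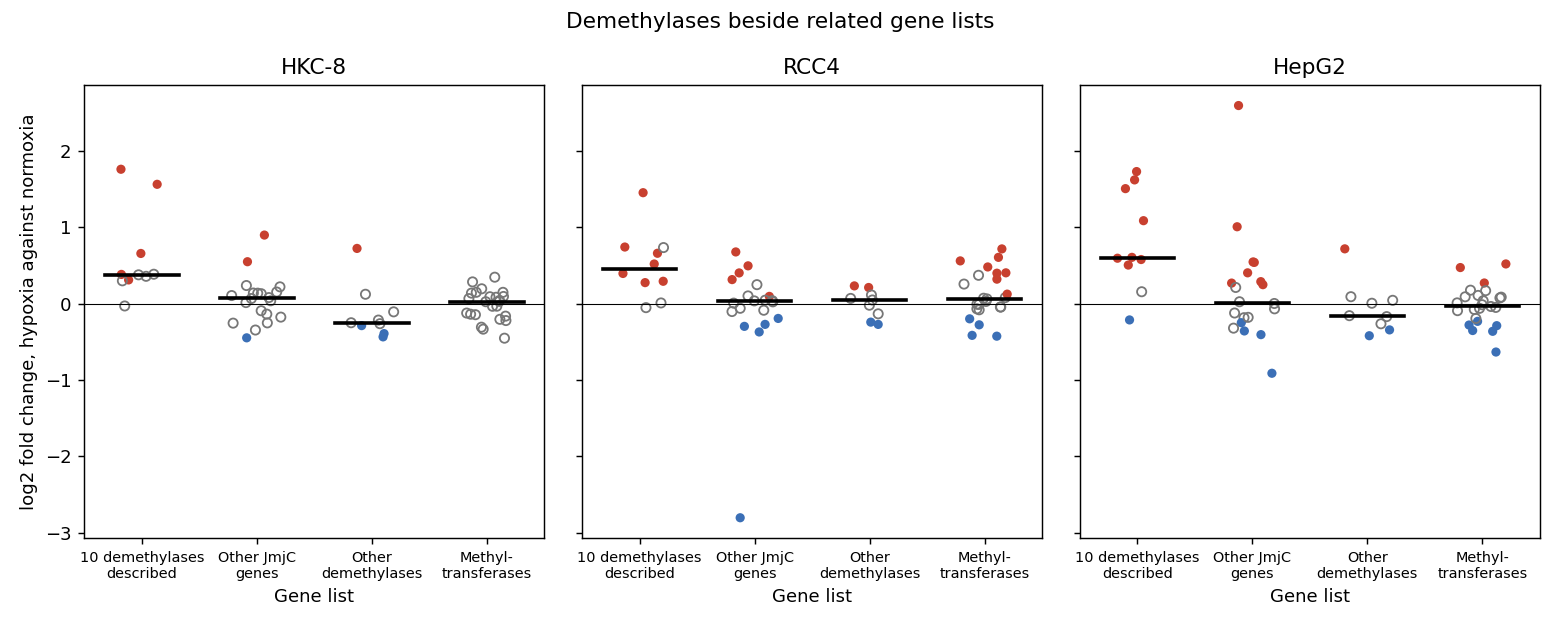
Log2 fold change of hypoxia over normoxia for the 10 genes and for the 3 lists of related enzymes in each line. Red points rose, blue points fell and open points did not pass the adjusted threshold, in fits without a block. Bars mark medians, which for the 10 genes are 0.38, 0.46 and 0.60.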

How the data were processed

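The files the authors deposited hold raw counts per gene for each sample. Per the labels and methods, polyadenylated RNA was prepared with ScriptSeq v2, reads were trimmed (Trim Galore 0.3.3), aligned to GRCh37 (TopHat 2.0.8b with Bowtie 1.0.0, SAMtools 0.1.19) and counted by HTSeq 0.5.4p3 in intersection-strict mode, without fragments that mapped to several places. A strand setting is not given in the sources used here. Such counting can lower genes that overlap others or have near-identical copies.

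Hypoxia was compared with normoxia within each line (3 against 3) by edgeR 4.0.16 in R 4.3.3, with TMM scaling, filterByExpr, glmQLFit and glmQLFTest and no block, and Benjamini-Hochberg adjustment over all genes tested. The interaction used the 12 HKC-8 and HepG2 samples, and normoxic levels the 9 normoxic samples. The members and gene lists were chosen with earlier results of these data known. All 10 members are named. A gene of a related list is named where its adjusted p was under 0.05 and its log2 fold change at least 0.5 in size, at most 6 per list and line, with CA9, EGLN3, NDRG1 and VEGFA as hypoxia markers, tissue markers for the labels, and the 3 most alike genes for members called in 2 or more lines. Alternatives were DESeq2 1.42.0, RLE scaling, other count filters, all 18 samples in 1 fit, the replicate block and leaving out each sample. Replicate numbers are from the labels. The lowest correlation of same-numbered deviations was 0.20 in HKC-8, 0.043 in HepG2 and -0.0034 in RCC4 cells, so numbers were taken to pair the HKC-8 samples only, above 0.1. The main fits still had no block, so the HKC-8 calls and the interaction leave this pairing out.

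Pairs of replicates differed by more than sampling noise (chi-square per degree of freedom 4.57 to 91.5 in 18 pairs). On simulated counts with 200 changed genes at a log2 size of 1.5, the test recovered 98.5%, 99.5% and 100% of them for hypoxia in HKC-8 (13447 genes), RCC4 (12746) and HepG2 cells (13510). For the interaction it recovered 93.0%. Unchanged genes made up 2.94% to 7.91% of the calls over all comparisons. The changed genes were drawn from those with higher counts. Simulated libraries were drawn independently, whereas same-numbered HKC-8 samples deviated together. The rates for HKC-8 cells and for the interaction therefore do not cover that pairing. Most members changed by less than 1.5, and recovery of smaller changes was not simulated. A count of 3 was taken as the floor of a library. Figures used matplotlib 3.10.9 in Python 3.11.15.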

Additional observations from a re-analysis of the deposited data

Results flagged for a closer look

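The response to hypoxia differed between HKC-8 and HepG2 cells, by the interaction test in edgeR, for 5 of the 10 members and 4 of 53 related enzymes tested, where 9.30% of all genes tested differed. The share of related enzymes, 7.55%, was thus below that of all genes. As HKC-8 minus HepG2 differences of log2 fold changes, KDM4A stood at 0.52, KDM6B at 0.50, KDM5B at -0.71, JMJD6 at -0.63 and TET1 at -1.24. KDM4A was the only one of these called in opposite directions in the 2 lines. Among the related enzymes, HR stood at -2.05 (adjusted p = 0.000216), the H3K4 demethylase KDM1A at -0.38 (0.0126), the H3K27 methyltransferase EZH2 at 0.43 (0.0394) and DNMT3B at 0.67 (0.0179). Of these 2 methyltransferase calls, 0 were left without HepG2 normoxic replicate 2 or HepG2 hypoxic replicate 1, and the list had 1 call in 6 other fits with a sample left out. Line, library depth and a possible difference in oxygen level, with 0.1 in the HKC-8 and 0.5 in the HepG2 titles, cannot be told apart in these differences.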

How the results depend on the processing

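Over 960 values of the members under alternative settings, 913 kept their direction and their side of the threshold, 22 newly passed it, 12 no longer did and 13 changed sign. The count of induced members in HKC-8 cells, 5, became 9 under DESeq2, 9 with all 18 samples in 1 fit and 9 with the replicate block, and ranged from 3 (without normoxic replicate 1) to 8 (without hypoxic replicate 2) when a sample was left out. The 1 repressed member in HepG2 cells ranged from 0 to 1. The replicate block changed no count of called members in another comparison by more than 1.5 times. Over all genes in HKC-8 cells 1522 were induced and 1235 repressed. These became 1885 and 1634 under DESeq2, 2836 and 2919 with the replicate block, and 2503 and 2510 with all 18 samples in 1 fit. With a sample left out they were 687 to 1794 and 326 to 1489, both lowest without normoxic replicate 1. In RCC4 cells 3318 and 3105 became 1867 and 1419 with all 18 samples in 1 fit, and the 1399 genes of the interaction became 2219 with all 18 samples in 1 fit, 3019 with the replicate block and 911 without HepG2 hypoxic replicate 1. The same all-sample fit called 6 of 20 other JmjC-domain genes in RCC4 cells, where 10 were called, and 2 of 9 other demethylases, where 4 were.

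Sign changes were seen only for differences near 0. The normoxic KDM3A difference between HepG2 and HKC-8 cells, -0.01, was 0.0074 under DESeq2, 0.0075 under RLE scaling and 0.025 with at least 10 counts per sample. With a sample left out, the JMJD6 difference in HKC-8 cells ranged from -0.11 to 0.026, KDM4A in RCC4 cells from -0.0069 to 0.025, KDM6B in RCC4 cells from -0.20 to 0.057, the KDM3A interaction from -0.024 to 0.10, and the normoxic KDM5B difference between HepG2 and RCC4 cells from -0.0073 to 0.11. TET1 in RCC4 cells passed the threshold with at least 10 counts per sample (adjusted p = 0.0480) and KDM4B between normoxic HepG2 and RCC4 cells with all 18 samples in 1 fit (0.0449). The cause was not tested in these cases. TET1 in RCC4 cells rests on 18 to 48 counts per library.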
